A study of Mus musculus with 8 samples.

Results

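The genes described here are 48 interferon-stimulated genes of the mouse, made up of antiviral effectors and of sensors of foreign RNA and DNA. They were taken by symbol from a table of read counts for 24421 genes, and all 48 passed a filter on low counts that kept 12744 genes. RNA was measured in 8 libraries, 4 groups of 2, from haematopoietic stem and progenitor cells (HSPCs), the rare marrow cells that give rise to blood. WT_EV was wild-type cells carrying an empty vector, and dKO_EV was dKO cells carrying the empty vector; the labels do not spell out dKO, read here as double knockout. dKO_MUT was double-knockout cells carrying an enzymatically dead mutant of PRMT1, and dKO_PRMT1 was double-knockout cells carrying wild-type PRMT1. PRMT1 is an enzyme that methylates arginines in histones and other proteins. The series title names β-catenin and Hoxa9 as the genes of the study, and its design text says that PRMT1 was expressed ectopically and that the cells came from mice after a primary transplant. No source used here gives the vector's promoter, the age or strain of the mice, or the cells that the recipients kept. The genotype label of dKO_MUT replicate 2 reads PRMT2 where that of replicate 1 reads PRMT1, and the cell type label calls all 8 libraries dKO, so groups follow the titles. The labels do not tell whether the 2 replicates of a group were different animals, so each p-value below reflects only how far these libraries differ, and that spread may be technical.

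Interferons are secreted proteins that warn cells of infection. Type I interferon binds the receptor made by Ifnar1 and Ifnar2, the kinases Jak1 and Tyk2 are switched on, and a complex called ISGF3, which holds Stat2 and Irf9, moves to the nucleus. There it binds a DNA element, the interferon-stimulated response element (ISRE), beside interferon-stimulated genes. Many of these genes are also made at a low constant level without infection, and stem cells are known for such tonic expression.

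The libraries held 15531344 to 22329749 counts, and the 48 genes took 0.424% to 0.732% of them. Levels are given as CPM, the counts scaled to library size, and as RPKM, the same per kilobase of transcript, where genes are compared with each other. Prmt1 stood at 188 and 192 CPM in WT_EV, 189.7 and 194 in dKO_EV, 1744 and 1758 in dKO_MUT, and 981 and 976 in dKO_PRMT1, so both inserts showed in the reads and the dead one stood higher. Hoxa9 was at 17.2 to 18.2 CPM in WT_EV and at 1.87 to 5.79 in the other 6 libraries, and Ctnnb1 (β-catenin) at 444 and 455 CPM against 360.1 to 391. Xist was at 159 and 121 CPM in WT_EV and at 0 in every dKO library, and the Y-linked Ddx3y at 0 in WT_EV and at 58.2 to 68.5 in the others, so genotype cannot be told apart from the sex of the source animals. None of the 48 genes lies on X or Y. HSPC is the name in the labels. Of 12 HSPC markers, Kit ranged from 137 to 171 CPM, Cd34 from 105 to 162 and Ly6a from 154 to 262. All 12 summed to 688 to 1005 CPM over the libraries. The sum of 9 neutrophil markers was 7284 to 17714 CPM, and that of 12 monocyte and macrophage markers 2552 to 3341, so markers of mature myeloid cells were abundant.

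The letters of the ISRE core were searched for in the promoters of the genes. RefSeq promoter windows (GRCm38.p6, 250 bases before to 50 bases after an annotated start) were at hand for 37 of the 48 genes. The ISRE core, searched as GAAA, any 2 bases and GAAA again on both strands with overlapping matches kept, was found for 20 of the 37 (54.1%). It was found for 1079 of all 27025 genes with a window (3.99%), and for 3.86% of the genes tested that had one. The STAT element core TTCNNNGAA, whose letters can overlap those of the ISRE core, was found for 9 of the 37 (24.3%) and for 9.55% of all genes. The stretches below were chosen from the 20 genes with a match. Genes with large changes were also among those whose window held none. Examples are Oasl1 and Ifi44, at log2 changes of -1.56 and -1.37 from dKO_EV to dKO_PRMT1, and Lgals3bp, at -0.83. The search allowed only a gap of 2 bases. On one strand or the other, the windows of Ifi44 and Lgals3bp hold a pair of GAAA words with a wider gap, and such pairs were not counted. Each stretch runs from 20 bases before the first match to the base before the start, on the gene's own strand. Matches to the ISRE core are in capitals. The Ifit1 stretch is instead the whole 145 bases between its start and that of Ifit1bl2, which is read the other way, so the same 2 matches belong to both genes. Isg15 and the Oas1 pair are shown for their overlapping matches, and Gbp3 because its level did not follow the rest.
Ifit1, chr19:34640744-34640888, plus strand: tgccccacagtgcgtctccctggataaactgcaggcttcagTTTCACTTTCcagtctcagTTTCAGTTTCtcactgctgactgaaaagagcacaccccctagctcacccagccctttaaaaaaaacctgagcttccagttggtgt
Ifit3, chr19:34583353-34583528, plus strand: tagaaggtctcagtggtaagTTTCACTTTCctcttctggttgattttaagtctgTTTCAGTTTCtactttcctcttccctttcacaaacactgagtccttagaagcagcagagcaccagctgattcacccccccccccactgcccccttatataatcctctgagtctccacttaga
Rsad2, chr12:26456453-26456592, minus strand: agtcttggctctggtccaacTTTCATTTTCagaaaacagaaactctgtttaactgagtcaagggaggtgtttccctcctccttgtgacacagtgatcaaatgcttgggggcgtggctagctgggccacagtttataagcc
Isg15, chr4:156200819-156200916, minus strand: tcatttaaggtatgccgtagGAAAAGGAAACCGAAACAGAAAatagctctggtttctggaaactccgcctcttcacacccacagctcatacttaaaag
Ddx60, chr8:61928014-61928086, plus strand: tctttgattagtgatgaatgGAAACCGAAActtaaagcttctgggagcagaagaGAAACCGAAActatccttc
Bst2, chr8:71537473-71537622, minus strand: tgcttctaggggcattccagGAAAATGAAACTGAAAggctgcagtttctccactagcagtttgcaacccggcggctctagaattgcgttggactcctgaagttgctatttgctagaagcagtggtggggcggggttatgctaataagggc
Oas1a, chr5:120907526-120907565, minus strand: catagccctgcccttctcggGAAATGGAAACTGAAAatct
Oas1g, chr5:120887614-120887651, minus strand: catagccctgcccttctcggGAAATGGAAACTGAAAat
Gbp3, chr3:142559979-142560043, plus strand: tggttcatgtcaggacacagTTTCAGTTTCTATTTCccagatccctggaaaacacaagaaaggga

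Isg15 held 3 overlapping matches, which run into one another as a repeat of GAAA. The Oas1a and Oas1g stretches were identical at all 38 bases of the shorter one, and Gbp3 held 2 overlapping matches. In the plot of match positions most matches lie before the start, though Ifih1, Ddx58, Eif2ak2 and Ifitm3 held theirs only after it and Lgals9 on both sides. Trim30a has more than 1 annotated start, with a match before the start that is drawn and one after another. A match is a description of letters and not a measured binding site.

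**Figure D1:**
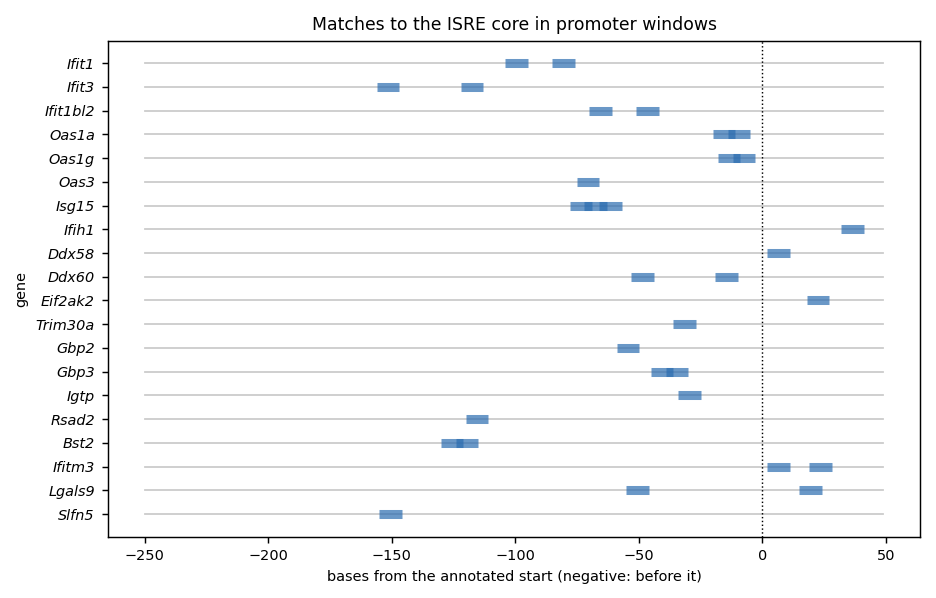
Positions of matches to the ISRE core in the promoter windows of the 20 genes that held one, in bases from the annotated start (negative values lie before it). Each bar is 1 match, overlapping matches appear darker, and the farthest lies 156 bases before the start, at Ifit3, with those of Ifih1, Ddx58, Eif2ak2 and Ifitm3 and 1 of Lgals9 after it; for Trim30a 1 of its windows is drawn.

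Across the 4 groups the 48 genes behaved as a block that was highest in the empty-vector libraries and lower with either insert. Their summed level was 7330.2 and 7374 CPM in WT_EV, 6575 and 6729 in dKO_EV, 4446 and 4488 in dKO_MUT, and 4268 and 4240.1 in dKO_PRMT1. The groups did not overlap in this sum, and the step between empty vector and insert was larger than those within each pair of groups. For 45 of the 48 genes all 4 insert libraries lay below all 4 empty-vector libraries, which held for 9.02% of the 12744 genes tested. Ifit1bl2, Mx2 and Gbp3 were the exceptions. In bulk RNA, fewer cells of a type and less RNA per cell cannot be told apart.

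**Figure D2:**
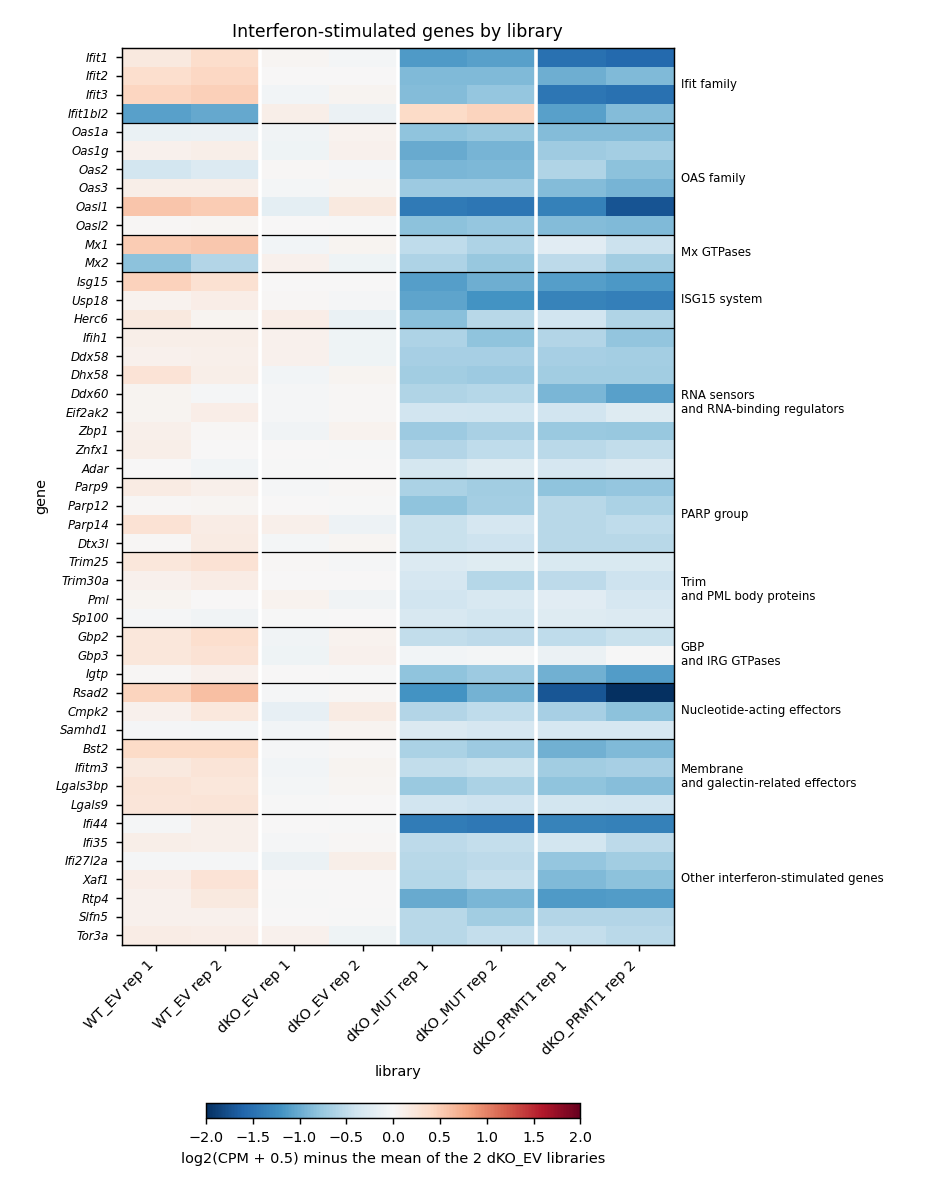
Heat map of the 48 genes (rows, by role) in the 8 libraries (columns); colour is log2(CPM + 0.5) minus the mean of the 2 dKO_EV libraries. The 4 insert libraries on the right are blue for nearly every gene, whereas Ifit1bl2 is red in dKO_MUT and Gbp3 stays near white.

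Per unit of length the most abundant of the 48 genes over all 8 libraries was Ifitm3, at a mean of 679 RPKM. It was followed by Lgals3bp at 206 RPKM, Ifi27l2a at 189.5, Bst2 at 181, Lgals9 at 171, Sp100 at 102, Samhd1 at 97.5 and Isg15 at 82.0. The scarcest were Ifit1bl2 at 2.25 RPKM and Mx2 at 2.93 RPKM. The genes lie on 14 chromosomes, and 19 of them sit at 7 loci that hold 2 or more of the set, among them the Ifit cluster on chromosome 19 and the Oas cluster on chromosome 5.

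Setting dKO_PRMT1 beside dKO_EV shows double-knockout cells with and without added wild-type PRMT1. With it, 47 of the 48 genes were called lower by edgeR's quasi-likelihood test at a Benjamini-Hochberg adjusted p under 0.05, where 8.67% of all genes tested were. None was called higher, none was higher at an unadjusted p under 0.05, and DESeq2 and limma voom also called 0 higher (5.96% of all genes tested were called higher). The median change of the 48 genes was -0.71 on the log2 scale, a fold of 0.612, beside 0.00 over all genes tested, and 11 of the called genes changed at least 2-fold. The comparison of dKO_MUT with dKO_EV asks the same of the enzymatically dead protein. Here 46 of the 48 genes were called lower (7.08% of all genes tested) and 0 higher (4.24%), with 0 higher at an unadjusted p under 0.05 and 0 by DESeq2 or limma voom. The median was -0.67, a fold of 0.630, and 6 of the called genes changed at least 2-fold. These comparisons share the dKO_EV libraries, and the 48 genes were chosen with earlier results of these data known. Called lower with both inserts were 46 of the 48 genes and 5.23% of all genes tested.

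**Figure D3:**
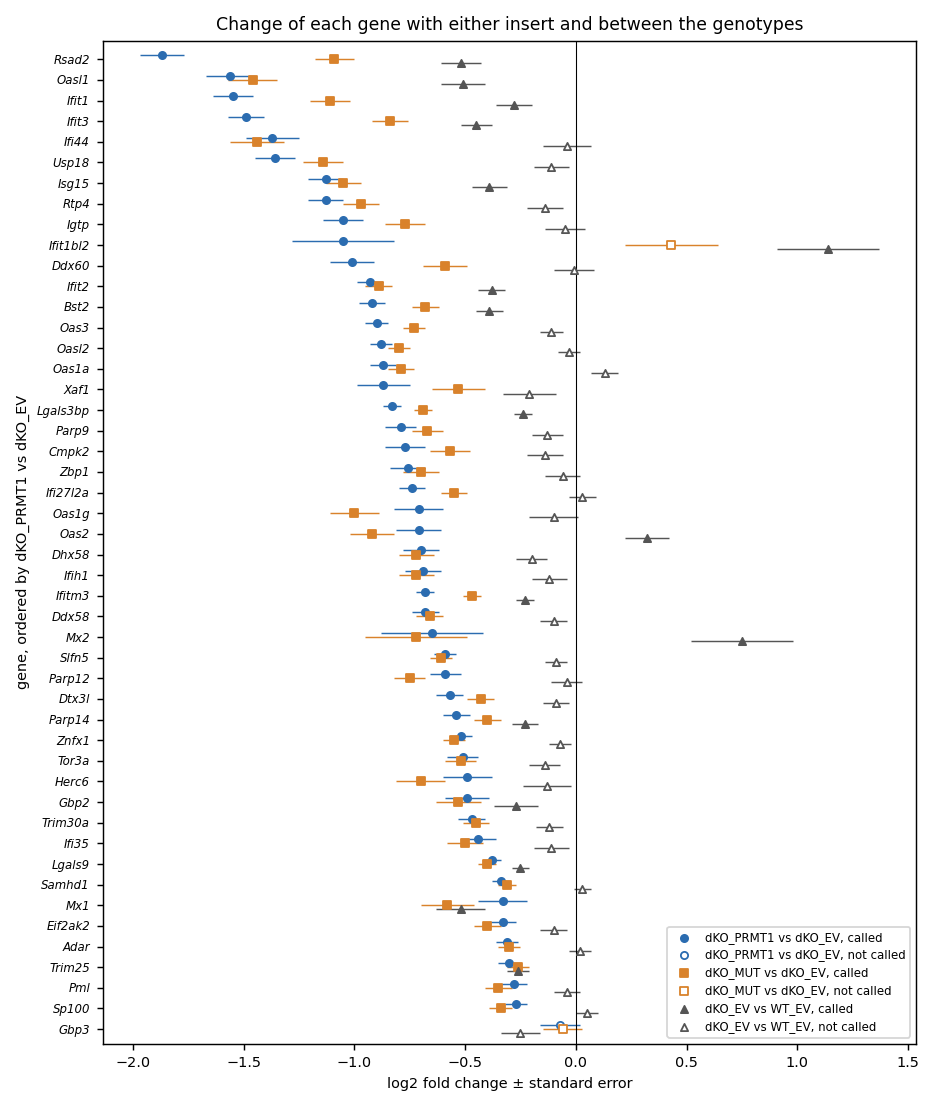
Log2 fold change with its standard error for each of the 48 genes in 3 comparisons, ordered by dKO_PRMT1 against dKO_EV; filled symbols passed the test. Blue circles and orange squares lie left of 0 for 47 of the 48 genes, and Ifit1bl2 is the gene whose orange square lies right of it, at 0.43.

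The Ifit family makes tetratricopeptide proteins that grip viral RNA, and its genes form a cluster on chromosome 19. All 4 were lower with wild-type PRMT1 and 3 were with the dead mutant, at medians of -1.27 and -0.86, the largest median among the groups of genes with wild-type PRMT1. Ifit1 (chr19:34640889-34650009), whose product recognises RNA without a self cap, stood at 80.2 and 89.0 CPM in WT_EV, 71.9 and 67.6 in dKO_EV, 31.6 and 32.8 in dKO_MUT, and 24.3 and 23.4 in dKO_PRMT1. Its 4 groups were stepped in that order with no overlap. How many of all genes tested step in this way was not counted, here or for the genes below. It was lower by -1.55 ± 0.09 (log2 fold change ± SE, adjusted p = 1.0e-15) with PRMT1 and by -1.11 ± 0.09 (adjusted p = 4.4e-12) with the mutant.

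Ifit3, an Ifit1 partner, stood at 110.0 and 114 CPM in WT_EV, 78.7 and 84.3 in dKO_EV, 44.2 and 47.3 in dKO_MUT, and 29.5 and 28.6 in dKO_PRMT1. It too was stepped with no overlap, and changed by -1.49 ± 0.08 with PRMT1 and -0.84 ± 0.08 with the mutant. Its neighbour Ifit3b shares 51.2% of the 50-base words of Ifit3, so reads of these copies may be split or dropped in counting. Ifit3b itself was lower with both, by -1.34 ± 0.17 and -0.68 ± 0.16. Ifit2 ran differently at 189.5 and 199.8 CPM in WT_EV, 149.8 and 149 in dKO_EV, 81.0 and 80.2 in dKO_MUT, and 76.2 and 81.1 in dKO_PRMT1. Its insert libraries overlapped one another, and its changes were -0.93 ± 0.06 and -0.89 ± 0.06.

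Ifit1bl2 is an Ifit1-like gene read away from Ifit1 across the 145 bases printed above. It stood at 4.11 and 4.25 CPM in WT_EV, 10.1 and 8.47 in dKO_EV, 12.1 and 12.7 in dKO_MUT, and 4.06 and 4.86 in dKO_PRMT1. The WT_EV and dKO_PRMT1 libraries were low and overlapped, and the dKO_EV and dKO_MUT libraries were high and did not overlap them. It fell by 1.05 ± 0.23 on the log2 scale with PRMT1 (adjusted p = 9.7e-04), while its difference of 0.43 ± 0.21 with the mutant did not pass the test (adjusted p = 0.218). Ifit1 and Ifit1bl2 share 7.06% of the 50-base words of Ifit1.

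The OAS family senses double-stranded RNA and makes the oligoadenylates that activate RNase L. All 6 genes were lower with both inserts, at medians of -0.87 and -0.86. Oas1a stood at 134 and 136 CPM in WT_EV, 140.0 and 154 in dKO_EV, 83.9 and 86.8 in dKO_MUT, and 80.4 and 80.8 in dKO_PRMT1. Its empty-vector libraries were all high and its insert libraries all low, with changes of -0.87 ± 0.06 with PRMT1 and -0.79 ± 0.06 with the mutant. Oas1a and its neighbour Oas1g share 57.6% and 45.7% of their own 50-base words with other genes, mostly with each other, so the split of reads between them is uncertain. Oas1g stood at 39.8 and 40.6 CPM in WT_EV, 35.3 and 39.6 in dKO_EV, 18.3 and 19.3 in dKO_MUT, and 22.7 and 23.1 in dKO_PRMT1, and was called lower with both inserts (adjusted p = 9.4e-06 with PRMT1 and 2.3e-08 with the mutant).

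Oas3, the largest of the synthetases, stood at 274 and 276 CPM in WT_EV, 247 and 262 in dKO_EV, 153 and 153 in dKO_MUT, and 139.8 and 133 in dKO_PRMT1. Oasl2 stood at 207 and 211 CPM in WT_EV, 205 and 203 in dKO_EV, 116 and 119 in dKO_MUT, and 112 and 110.2 in dKO_PRMT1. In both genes the insert libraries lay well under the others, by -0.90 ± 0.05 and -0.88 ± 0.05 with PRMT1 and by -0.73 ± 0.05 and -0.80 ± 0.05 with the mutant. Oasl1, a family member without synthetase activity that restrains translation of Irf7, stood at 104 and 100.2 CPM in WT_EV, 62.2 and 80.6 in dKO_EV, 26.2 and 25.9 in dKO_MUT, and 27.6 and 21.1 in dKO_PRMT1. The insert libraries overlapped one another far under the rest, and the changes, -1.56 ± 0.11 (adjusted p = 2.9e-12) and -1.46 ± 0.11 (adjusted p = 1.4e-11), were the largest of the family. Oas2 stood at 41.7 and 44.7 CPM in WT_EV, 54.8 and 52.9 in dKO_EV, 28.4 and 28.5 in dKO_MUT, and 35.4 and 30.2 in dKO_PRMT1. It was highest in dKO_EV, and changed by -0.71 ± 0.10 and -0.92 ± 0.10.

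The Mx proteins are dynamin-like GTPases that block virus replication. Mx1 stood at 43.4 and 44.8 CPM in WT_EV, 29.3 and 31.8 in dKO_EV, 21.3 and 19.8 in dKO_MUT, and 26.2 and 22.6 in dKO_PRMT1. Mx2 stood at 5.44 and 6.46 CPM in WT_EV, 10.6 and 9.45 in dKO_EV, 6.39 and 5.70 in dKO_MUT, and 6.77 and 5.97 in dKO_PRMT1. Mx1 stood highest in WT_EV, whereas Mx2 stood highest in dKO_EV and overlapped between WT_EV and both insert groups. With PRMT1 their changes of -0.33 ± 0.11 (adjusted p = 0.0479) and -0.65 ± 0.23 (adjusted p = 0.0489) passed the threshold narrowly. The DESeq2 Wald test did not call them (adjusted p = 0.0806 and 0.0686). Mx1 was lost without either WT_EV replicate, dKO_EV replicate 2 or either dKO_PRMT1 replicate (adjusted p = 0.0528 to 0.414), and Mx2 without any 1 of the WT_EV, dKO_EV and dKO_PRMT1 libraries (adjusted p = 0.0582 to 0.297). With the mutant the changes were -0.58 ± 0.12 (adjusted p = 5.3e-04) and -0.72 ± 0.23 (adjusted p = 0.0319), and that of Mx2 was lost without dKO_EV replicate 1 or either dKO_MUT replicate (adjusted p = 0.102, 0.0831 and 0.183).

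Isg15 is a ubiquitin-like protein that is joined to other proteins. It stood at 105 and 94.1 CPM in WT_EV, 76.1 and 76.5 in dKO_EV, 35.4 and 38.4 in dKO_MUT, and 35.5 and 34.2 in dKO_PRMT1. Usp18, which removes Isg15 and also damps the interferon receptor, stood at 76.6 and 80.2 CPM in WT_EV, 74.2 and 71.7 in dKO_EV, 34.7 and 31.4 in dKO_MUT, and 28.6 and 28.0 in dKO_PRMT1. Both genes were at less than 0.5 of their dKO_EV level in the insert groups, at folds of 0.456 and 0.389 with PRMT1 and of 0.483 and 0.454 with the mutant. Herc6, the ligase that attaches Isg15 in the mouse, changed by -0.49 ± 0.11 and -0.70 ± 0.11. Without dKO_PRMT1 replicate 2 the former did not pass (adjusted p = 0.0978), nor without dKO_EV replicate 1 (adjusted p = 0.0515).

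All 8 RNA sensors and RNA-binding regulators were lower with both inserts, at medians of -0.68 and -0.63. The 3 cytosolic helicase sensors moved nearly alike: Ifih1 (MDA5) by -0.69 ± 0.08 with PRMT1 and -0.72 ± 0.08 with the mutant, Ddx58 (RIG-I) by -0.68 ± 0.06 and -0.66 ± 0.06, and Dhx58 (LGP2) by -0.70 ± 0.08 and -0.72 ± 0.08. Dhx58, the highest of the 8 per unit of length at 31.4 RPKM, stood at 109 and 97.1 CPM in WT_EV, 86.3 and 93.2 in dKO_EV, 55.4 and 54.0 in dKO_MUT, and 55.1 and 55.4 in dKO_PRMT1. Its insert groups overlapped, and all 4 of those libraries were low.

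Ddx60, a helicase that assists these sensors, stood at 53.6 and 50.5 CPM in WT_EV, 50.5 and 52.4 in dKO_EV, 33.8 and 34.5 in dKO_MUT, and 27.2 and 24.0 in dKO_PRMT1. It was alone among the 8 in being called lower in dKO_PRMT1 than in dKO_MUT, and its changes against dKO_EV were -1.01 ± 0.10 and -0.59 ± 0.10. Zbp1, a sensor of Z-form nucleic acid, stood at 83.8 and 80.1 CPM in WT_EV, 74.5 and 82.2 in dKO_EV, 46.9 and 49.8 in dKO_MUT, and 46.3 and 46.1 in dKO_PRMT1. Its empty-vector groups overlapped above the insert groups. Adar, the deaminase that edits double-stranded RNA, stood at 193 and 184 CPM in WT_EV, 190.1 and 192 in dKO_EV, 150.0 and 160.0 in dKO_MUT, and 152 and 157 in dKO_PRMT1. It moved least of the 8, by -0.31 ± 0.05 (adjusted p = 2.9e-05) and -0.30 ± 0.05 (adjusted p = 5.6e-05). Eif2ak2, the kinase PKR that stops translation, was close to it with -0.33 ± 0.06 and -0.40 ± 0.06, and Znfx1, an RNA-binding helicase, changed by -0.52 ± 0.05 and -0.55 ± 0.05.

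The PARP group adds ADP-ribose to proteins, and Dtx3l is the ubiquitin ligase that pairs with Parp9. All 4 genes were lower with both inserts, at medians of -0.58 and -0.55. Parp9 stood at 113 and 109 CPM in WT_EV, 99.7 and 103 in dKO_EV, 64.9 and 62.3 in dKO_MUT, and 57.9 and 59.4 in dKO_PRMT1. Parp12 stood at 112 and 113 CPM in WT_EV, 109.8 and 109 in dKO_EV, 62.2 and 68.1 in dKO_MUT, and 74.4 and 70.5 in dKO_PRMT1. Parp9 was lowest in dKO_PRMT1 and Parp12 in dKO_MUT, with changes of -0.79 ± 0.07 and -0.59 ± 0.07 with PRMT1 and of -0.67 ± 0.07 and -0.75 ± 0.07 with the mutant. Dtx3l changed by -0.57 ± 0.06 and -0.43 ± 0.06 and Parp14 by -0.54 ± 0.06 and -0.40 ± 0.06. Parp9 and Dtx3l overlap by 334 exonic bases on opposite strands, and the strand setting of the counting is unknown here.

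Trim25, Trim30a, Pml and Sp100 changed least as a group, with medians of -0.29 and -0.35, yet all 4 were called lower with both inserts. Sp100, a component of the nuclear bodies that Pml organises, stood at 241 and 234 CPM in WT_EV, 243 and 248 in dKO_EV, 197 and 191 in dKO_MUT, and 205 and 203 in dKO_PRMT1. The insert libraries were all low, by -0.27 ± 0.05 (adjusted p = 4.3e-05) and -0.34 ± 0.05 (adjusted p = 1.0e-06). Trim30a stood at 201 and 211 CPM in WT_EV, 190.3 and 189 in dKO_EV, 149 and 128 in dKO_MUT, and 131 and 142 in dKO_PRMT1, with insert libraries that overlapped one another. It changed by -0.47 ± 0.06 and -0.45 ± 0.06, Trim25, the ligase that activates RIG-I, by -0.30 ± 0.05 and -0.26 ± 0.05, and Pml by -0.28 ± 0.06 and -0.35 ± 0.06. Pml was not called with PRMT1 when dKO_PRMT1 replicate 2 was left out (adjusted p = 0.0712).

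The guanylate-binding proteins and the GTPase Igtp act in the defence against intracellular pathogens, and here the 3 genes differed. Igtp stood at 62.1 and 65.1 CPM in WT_EV, 62.0 and 60.7 in dKO_EV, 35.0 and 36.8 in dKO_MUT, and 31.3 and 27.9 in dKO_PRMT1. Gbp2 stood at 51.1 and 55.0 CPM in WT_EV, 41.7 and 46.0 in dKO_EV, 30.7 and 30.2 in dKO_MUT, and 30.6 and 32.1 in dKO_PRMT1. Both were low in all 4 insert libraries, Igtp by -1.05 ± 0.09 and -0.77 ± 0.09 and Gbp2 by -0.49 ± 0.10 and -0.53 ± 0.10. Gbp3 stood at 51.0 and 53.6 CPM in WT_EV, 41.2 and 46.4 in dKO_EV, 41.8 and 42.5 in dKO_MUT, and 40.5 and 43.3 in dKO_PRMT1. Its 6 dKO libraries overlapped, so it was the 1 gene of the 48 called with neither insert, at -0.07 ± 0.09 (adjusted p = 0.704) and -0.06 ± 0.09 (adjusted p = 0.76), although its promoter window holds 2 ISRE core matches.

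Rsad2 (viperin), which makes a chain-terminating nucleotide, gave the largest change of the 48 genes with PRMT1. It stood at 114 and 128 CPM in WT_EV, 83.1 and 85.5 in dKO_EV, 36.3 and 43.2 in dKO_MUT, and 25.5 and 20.6 in dKO_PRMT1. The groups descended in that order without overlap, and the changes were -1.87 ± 0.10 (adjusted p = 3.6e-17), a fold of 0.273, and -1.09 ± 0.09 (adjusted p = 1.5e-11), a fold of 0.471. Its neighbour on chromosome 12 is Cmpk2, a mitochondrial nucleotide kinase. Cmpk2 stood at 89.5 and 97.7 CPM in WT_EV, 75.4 and 93.9 in dKO_EV, 55.8 and 59.0 in dKO_MUT, and 52.6 and 47.3 in dKO_PRMT1. Its empty-vector groups overlapped and lay above the insert libraries, by -0.77 ± 0.09 and -0.57 ± 0.09 from dKO_EV. Samhd1, which breaks down the building blocks of DNA, stood at 428 and 426 CPM in WT_EV, 421 and 453 in dKO_EV, 358 and 348 in dKO_MUT, and 348 and 345 in dKO_PRMT1. The insert libraries were lower by a smaller step, -0.34 ± 0.04 and -0.31 ± 0.04.

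Among effectors at membranes, Ifitm3, which blocks the fusion of viruses with endosomes, stood at 575 and 598 CPM in WT_EV, 484 and 517 in dKO_EV, 353 and 368 in dKO_MUT, and 308 and 315 in dKO_PRMT1. Bst2 (tetherin), which holds budding virus on the cell, stood at 209 and 210.2 CPM in WT_EV, 157 and 162 in dKO_EV, 102 and 96.7 in dKO_MUT, and 82.2 and 86.9 in dKO_PRMT1. Lgals3bp, a secreted galectin-binding protein, stood at 633 and 620.0 CPM in WT_EV, 517 and 546 in dKO_EV, 318 and 342 in dKO_MUT, and 302 and 294 in dKO_PRMT1. All 3 descended from WT_EV to dKO_PRMT1 without overlap between groups, an order whose share over all genes tested was not counted. With PRMT1 they changed by -0.68 ± 0.04, -0.92 ± 0.06 and -0.83 ± 0.04, and with the mutant by -0.47 ± 0.04, -0.68 ± 0.06 and -0.69 ± 0.04. Lgals9, a galectin, changed by -0.38 ± 0.04 and -0.40 ± 0.04.

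The other 7 genes were all lower with both inserts, at medians of -0.74 and -0.55. Ifi44 stood at 39.1 and 42.5 CPM in WT_EV, 40.0 and 39.3 in dKO_EV, 14.7 and 14.4 in dKO_MUT, and 15.4 and 15.2 in dKO_PRMT1. Its insert groups lay far under the empty-vector groups and close to each other, at -1.37 ± 0.12 and -1.44 ± 0.12. Rtp4 stood at 91.1 and 98.7 CPM in WT_EV, 85.4 and 86.8 in dKO_EV, 42.6 and 45.6 in dKO_MUT, and 39.1 and 39.6 in dKO_PRMT1. It changed by -1.13 ± 0.08 and -0.97 ± 0.08, with all insert libraries low. Ifi27l2a, a small mitochondrial protein gene, stood at 201 and 202 CPM in WT_EV, 189.8 and 220.3 in dKO_EV, 139 and 142 in dKO_MUT, and 119 and 126 in dKO_PRMT1. Slfn5, a Schlafen family gene, stood at 348 and 348 CPM in WT_EV, 330.5 and 325 in dKO_EV, 224 and 204 in dKO_MUT, and 217 and 219.7 in dKO_PRMT1. Both were low in every insert library, with changes of -0.74 ± 0.06 and -0.59 ± 0.05 with PRMT1 and -0.55 ± 0.06 and -0.61 ± 0.05 with the mutant. Ifi27l2a overlaps Ifi27 on the opposite strand by 103 exonic bases, 11.7% of its length, so the doubt over strand given for Parp9 and Dtx3l applies to it too. Xaf1, Tor3a and Ifi35 changed by -0.87 ± 0.12, -0.51 ± 0.07 and -0.44 ± 0.08 with PRMT1 and by -0.53 ± 0.12, -0.52 ± 0.07 and -0.50 ± 0.08 with the mutant.

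The 20 genes with a match had a median change of -0.79 with PRMT1 and -0.67 with the mutant, and the 17 with a window but no match -0.57 and -0.55. The 11 without a window had -0.71 and -0.70. Gbp3, called with neither insert, and Ifit1bl2, called with PRMT1 but not with the mutant, both hold matches. These medians are a description with no test, and no match says only that the letters are not in that window.

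The direct comparison of dKO_PRMT1 with dKO_MUT asks where wild-type and dead PRMT1 differ. Most of the 48 genes did not pass the test between the inserts, and those that did were all lower with the wild-type protein. Called lower were 8 genes (1.68% of all genes tested) and called higher 0 (1.43%), with 3 higher at an unadjusted p under 0.05 (Oas1g, Mx1 and Parp12) and 0 higher by DESeq2 or limma voom. The 8 were Rsad2 by -0.78 ± 0.10 (adjusted p = 1.3e-06), Ifit3 by -0.65 ± 0.08 (adjusted p = 1.4e-06), Ifit1bl2 by -1.47 ± 0.22 (adjusted p = 3.0e-05), Ifit1 by -0.43 ± 0.09 (adjusted p = 0.0042), Ifitm3 by -0.21 ± 0.04 (adjusted p = 0.00128), Ddx60 by -0.41 ± 0.10 (adjusted p = 0.0122), Bst2 by -0.24 ± 0.06 (adjusted p = 0.0157) and Lgals3bp by -0.15 ± 0.04 (adjusted p = 0.0494). In each of them both dKO_PRMT1 libraries lay under both dKO_MUT libraries, which held for 24 of the 48 genes and for 21.8% of all genes tested. The reverse, both dKO_PRMT1 libraries above both dKO_MUT libraries, held for 7 of the 48 genes (Oas1g, Oas2, Mx1, Eif2ak2, Parp12, Sp100 and Ifi44, by 0.07 to 0.28 and none called) and for 22.3% of all genes tested. Of the 8, the genes from the Ifit cluster on chromosome 19 number 3. Ifit3b, the near copy of Ifit3, was also called, at -0.66 ± 0.17 (adjusted p = 0.0203).

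The other 40 genes differed by -0.33 to 0.28 between the inserts, with standard errors of 0.04 to 0.23, and the median over all 48 was -0.04. For Dhx58 the difference was 0.01 ± 0.08, for Ddx58 -0.02 ± 0.06 and for Ifih1 0.03 ± 0.08, so a difference as large as that of Ddx60 was not seen in the other helicase sensors. Whether Ddx60 differs from them was not tested. The 8 calls are less firm than those against dKO_EV: leaving out either dKO_PRMT1 replicate left 5. Without replicate 1 Bst2 (adjusted p = 0.293), Ifitm3 (adjusted p = 0.069) and Lgals3bp (adjusted p = 0.18) were lost, and without replicate 2 Ifit1 (adjusted p = 0.0814), Ddx60 (adjusted p = 0.28) and Lgals3bp (adjusted p = 0.392). Without dKO_MUT replicate 1 Ddx60 (adjusted p = 0.0564) and Bst2 (adjusted p = 0.203) were not called, and without replicate 2 Ddx60 (adjusted p = 0.0853) and Lgals3bp (adjusted p = 0.517). With all libraries kept, Lgals3bp was also not called by the DESeq2 Wald test (adjusted p = 0.0517) or limma voom (adjusted p = 0.0742). Prmt1 itself differed between dKO_PRMT1 and dKO_MUT, as given above, and the part of its level in the differences between the inserts was not tested.

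**Figure D4:**
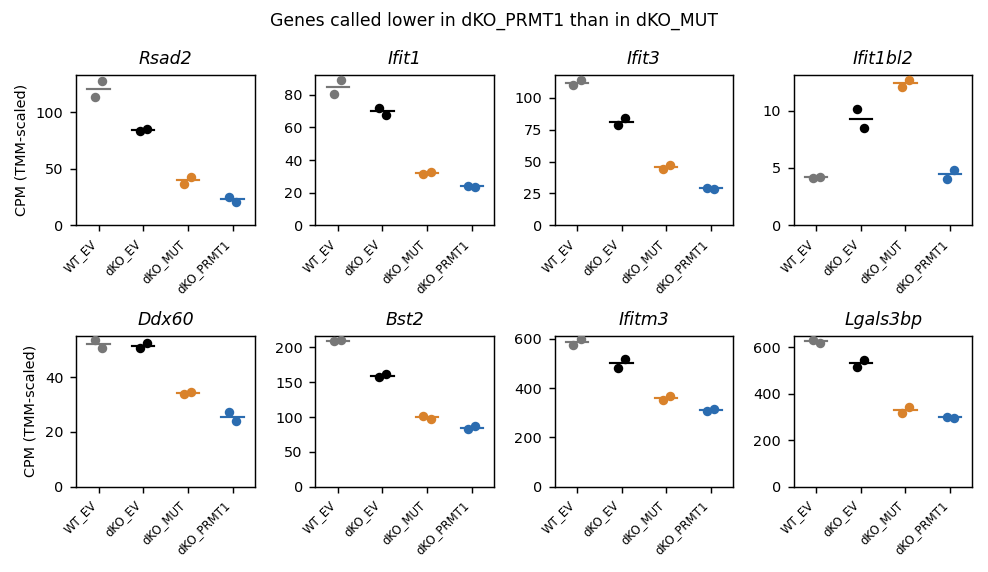
CPM of the 8 genes called lower in dKO_PRMT1 than in dKO_MUT, with 1 point for each library and a line at the mean of each group. Points descend from WT_EV to dKO_PRMT1 for Rsad2, Ifit1, Ifit3, Bst2, Ifitm3 and Lgals3bp, Ddx60 is level across the empty-vector groups, and Ifit1bl2 is high in dKO_EV and dKO_MUT only.

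The comparison of dKO_EV with WT_EV sets the double knockout beside wild type without an insert. Of the 48 genes, 14 were called lower (7.00% of all genes tested) and 3 higher (8.44%), and 31 did not pass, at a median of -0.12. The 14 were Rsad2 (-0.52 ± 0.09), Mx1 (-0.52 ± 0.11), Oasl1 (-0.51 ± 0.10), Ifit3 (-0.45 ± 0.07), Isg15 (-0.39 ± 0.08), Bst2 (-0.39 ± 0.06), Ifit2 (-0.38 ± 0.06), Ifit1 (-0.28 ± 0.08), Gbp2 (-0.27 ± 0.10), Trim25 (-0.26 ± 0.05), Lgals9 (-0.25 ± 0.04), Lgals3bp (-0.24 ± 0.04), Ifitm3 (-0.23 ± 0.04) and Parp14 (-0.23 ± 0.06). Each of them was lower again with both inserts. Membrane and galectin-related effectors (Bst2, Ifitm3, Lgals3bp and Lgals9) were lower in 4 of 4 cases and Ifit genes in 3 of 4. None of the 8 RNA sensors and RNA-binding regulators was called by edgeR, with 1 lower at an unadjusted p under 0.05, and their changes ran from -0.20 to 0.02.

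The 3 genes called higher in dKO_EV were Ifit1bl2 by 1.14 ± 0.23 (adjusted p = 4.0e-04), Mx2 by 0.75 ± 0.23 (adjusted p = 0.0203) and Oas2 by 0.32 ± 0.10 (adjusted p = 0.0216). The share of the 48 genes called higher was not above that of all genes tested. Only Ifit1bl2 was called when WT_EV replicate 1, WT_EV replicate 2 or dKO_EV replicate 1 was left out: without them Mx2 had adjusted p = 0.23, 0.0674 and 0.0779, and Oas2 0.222, 0.0659 and 0.079. Ifit1, Isg15, Parp14 and Gbp2 were also lost without 1 or more of the WT_EV or dKO_EV libraries, Ifit1 without WT_EV replicate 2 (adjusted p = 0.325) or dKO_EV replicate 2 (adjusted p = 0.0952), and Isg15 without WT_EV replicate 1 (adjusted p = 0.0567). Parp14 was lost without WT_EV replicate 1 (adjusted p = 0.27) or dKO_EV replicate 2 (adjusted p = 0.202), and Gbp2 without any of WT_EV replicate 1, WT_EV replicate 2 and dKO_EV replicate 1 (adjusted p = 0.102, 0.362 and 0.192) or either dKO_PRMT1 replicate (adjusted p = 0.056 and 0.0637).

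Set against wild type, most of the 48 genes were also lower with either insert. In dKO_PRMT1, 46 of the 48 genes were below WT_EV (12.2% of all genes tested) at a median of -0.79, and 0 were above it (11.0%), also at an unadjusted p under 0.05 and by DESeq2 and limma voom. The 2 not called were Ifit1bl2, at 0.09 ± 0.24, and Mx2, at 0.10 ± 0.23. In dKO_MUT 46 genes were below WT_EV (9.96% of all genes tested) at a median of -0.75, and 1 was above it (9.41%), Ifit1bl2 at 1.57 ± 0.23 (adjusted p = 1.2e-06). Mx2 did not differ there beyond its error, at 0.03 ± 0.23. Called below WT_EV with both inserts were 46 of the 48 genes and 7.96% of all genes tested. The largest differences from WT_EV were those of Rsad2 in dKO_PRMT1, at -2.39 ± 0.10, a fold of 0.190, and of Oasl1 in dKO_MUT, at -1.97 ± 0.11, a fold of 0.255. Gbp3, level among the dKO groups, was below WT_EV in both, by -0.32 ± 0.09 (adjusted p = 0.00867) and -0.31 ± 0.09 (adjusted p = 0.0126). Those calls were lost without WT_EV replicate 2 (adjusted p = 0.105 and 0.148), the former also without dKO_PRMT1 replicate 1 (adjusted p = 0.123) and the latter without dKO_MUT replicate 1 (adjusted p = 0.0768) or 2 (adjusted p = 0.0506). The Oas2 difference of dKO_PRMT1 from WT_EV, -0.40 ± 0.10, was lost without WT_EV replicate 2 (adjusted p = 0.0564) or dKO_PRMT1 replicate 2 (adjusted p = 0.121).

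The genes upstream of the set were read from a list of 73 ligands, receptors, signalling proteins and regulators, 52 of which were tested. The interferons themselves were near absent: of 21 ligand genes 16 were at 0 counts in all 8 libraries and none was tested. Ifnb1 had 2 counts in WT_EV replicate 2, 1 and 2 in dKO_MUT and 0 elsewhere, and the highest count of any ligand was the 4 of Ifnk in dKO_PRMT1 replicate 2. A count of 0 allows up to 3 counts, by counting error only, so ligand levels were not resolved at this depth. Of the 6 receptor genes, Ifnar1 and Ifnar2 were called with neither insert, at -0.10 ± 0.06 and -0.12 ± 0.07 with PRMT1 and -0.13 ± 0.06 and 0.03 ± 0.07 with the mutant. Il10rb was lower with both, by -0.37 ± 0.08 and -0.23 ± 0.08, and Ifngr1, the interferon-gamma receptor chain, was higher with PRMT1 by 0.33 ± 0.04.

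Irf9 and Stat2, which belong to ISGF3, were lower with both inserts. Irf9 stood at 85.1 and 85.7 CPM in WT_EV, 82.5 and 93.6 in dKO_EV, 66.7 and 64.1 in dKO_MUT, and 57.0 and 54.7 in dKO_PRMT1. Irf9 was low in the 4 insert libraries, by -0.66 ± 0.08 with PRMT1 and -0.43 ± 0.08 with the mutant, and Stat2 changed by -0.26 ± 0.07 and -0.22 ± 0.07. The kinases Jak1 and Tyk2 were called with neither insert, and Jak2 was lower with the mutant by -0.19 ± 0.05.

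Irf7, the factor that amplifies the interferon response and is itself interferon-stimulated, moved most among the upstream genes tested with PRMT1. It stood at 410.4 and 384 CPM in WT_EV, 337 and 349 in dKO_EV, 150.3 and 163 in dKO_MUT, and 139 and 128 in dKO_PRMT1. The groups descended without overlap, by -1.36 ± 0.05 (adjusted p = 6.5e-21) and -1.13 ± 0.05 (adjusted p = 4.9e-19) from dKO_EV and by -0.23 ± 0.05 (adjusted p = 0.0058) from dKO_MUT to dKO_PRMT1. Irf2 and Irf5 were lower with both inserts, by -0.32 ± 0.08 and -0.32 ± 0.06 with PRMT1 and -0.28 ± 0.08 and -0.50 ± 0.06 with the mutant. Irf8, a factor of myeloid and dendritic cells, was higher with both, by 0.29 ± 0.06 and 0.50 ± 0.06, and Irf1 and Irf3 were called with neither.

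The proteins that carry the signal of the sensors mostly did not pass the test. Of the 17 adaptors, kinases and receptors, 3 were lower and 1 higher with PRMT1, and 2 were lower and 0 higher with the mutant. Mavs, the adaptor of RIG-I and MDA5, differed by -0.25 ± 0.12 and -0.30 ± 0.12, Tmem173 (STING) by 0.02 ± 0.08 and 0.07 ± 0.08, and Tbk1 by 0.19 ± 0.08 and 0.15 ± 0.08, none of them called. The endosomal receptor Tlr9 was lower with both, by -0.48 ± 0.12 and -0.40 ± 0.12, as was Tlr8, by -0.31 ± 0.10 and -0.38 ± 0.10. Tlr7 was lower with PRMT1 by -0.43 ± 0.09, and Ikbke was higher by 0.36 ± 0.09. Of 15 negative regulators, 1 was lower and 2 were higher with PRMT1, and 2 were lower and 2 higher with the mutant. Trex1, which clears stray DNA from the cytosol, was lower with both, by -0.46 ± 0.08 and -0.33 ± 0.08. Higher with both were Irf2bp2, a corepressor of Irf2, by 0.29 ± 0.05 and 0.22 ± 0.05, and the phosphatase Ptpn6 by 0.17 ± 0.04 and 0.15 ± 0.04. Socs3, a feedback inhibitor, was lower with the mutant by -0.45 ± 0.15, and Socs1, another, differed by -0.31 ± 0.14 and -0.37 ± 0.14 without passing the test.

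**Figure D5:**
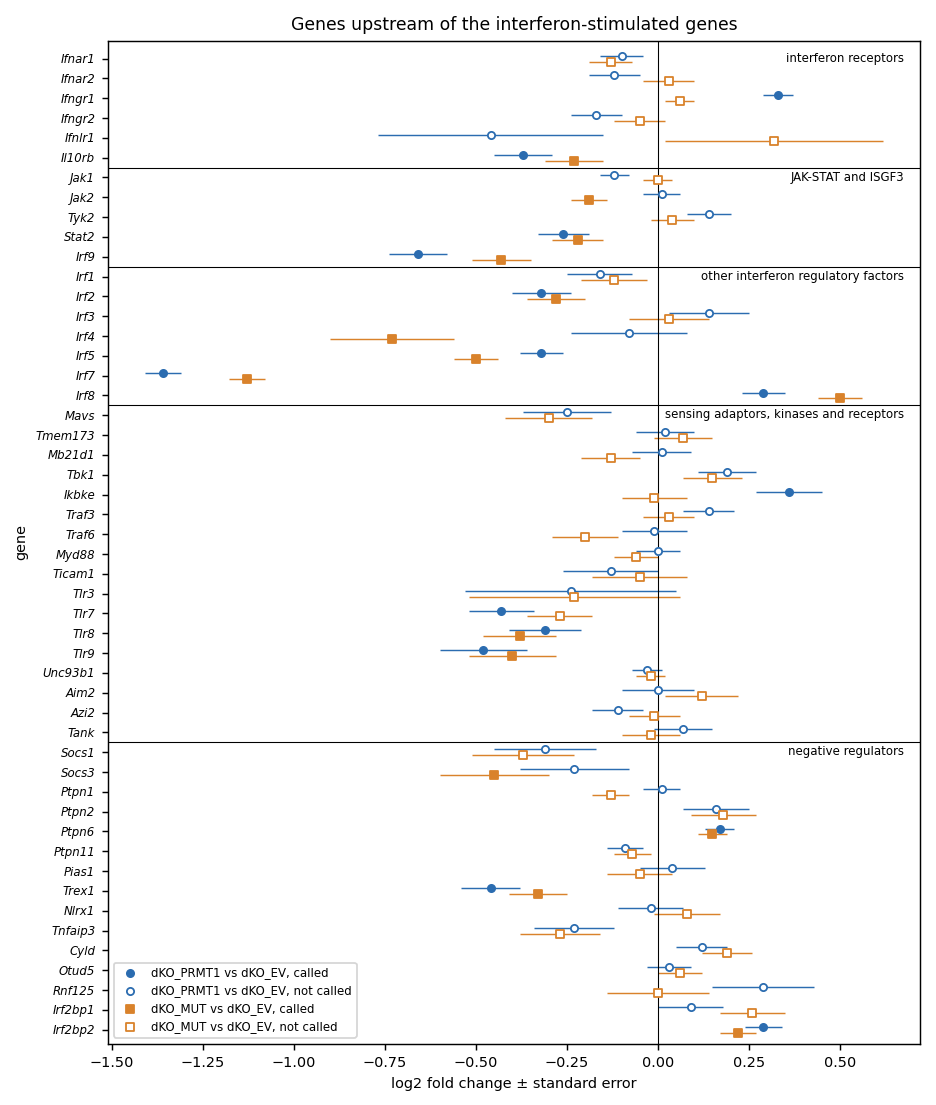
Log2 fold change with its standard error for upstream genes by role, in dKO_PRMT1 (blue circles) and dKO_MUT (orange squares) against dKO_EV; filled symbols passed the test, and not every gene tested is drawn. Irf7 stands far to the left at -1.36 and -1.13, Irf9 and Stat2 lie left of 0, and most adaptors and kinases are unfilled around 0.

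Markers of other blood cells moved between the same groups. Of all genes tested, 8.67% were called lower and 5.96% higher with PRMT1, and 7.08% lower and 4.24% higher with the mutant. For monocytes and macrophages, cells known for strong interferon responses, 8 of 12 markers were lower and 1 higher with PRMT1, and 9 were lower and 1 higher with the mutant. Their summed level ranged from 3185 to 3341 CPM in WT_EV, 2694 to 2924 in dKO_EV, 2552 to 2658 in dKO_MUT and 2733 to 2783 in dKO_PRMT1. That sum overlapped between dKO_EV and dKO_PRMT1, while C1qb stood at 59.2 and 55.3 CPM in dKO_EV, 24.2 and 27.3 in dKO_MUT, and 35.1 and 31.7 in dKO_PRMT1. Changes of the 12 markers ran from -1.15 to 0.33 with PRMT1 and from -1.81 to 0.43 with the mutant. In each comparison 3 of the 12 were above 0. Megakaryocyte and platelet markers summed to 384 to 396 CPM in WT_EV, 491 to 493 in dKO_EV, 323 to 325 in dKO_MUT and 273 to 287 in dKO_PRMT1, and so were highest in dKO_EV. The sum of the neutrophil markers ran the other way, from 7284 to 7508 CPM in WT_EV and 12929 to 13764 in dKO_EV to 17623 to 17714 in dKO_MUT and 15019 to 15355 in dKO_PRMT1. Of the 9, 7 were higher with the mutant, whereas 5 were higher and 3 lower with PRMT1, with Retnlg at -1.71 ± 0.10 and Cxcr2 at -1.45 ± 0.09. Mast cell and basophil markers summed to 1109 to 1154 CPM in WT_EV, 564 to 585 in dKO_EV, 694 to 698 in dKO_MUT and 348 to 369 in dKO_PRMT1. Their largest step was between WT_EV and dKO_EV, and from dKO_EV they went opposite ways with the inserts. Markers of plasmacytoid dendritic cells, the main makers of type I interferon, summed to no more than 14.9 CPM in any library and Siglech to no more than 2.99. Markers of B cells reached at most 12.9 CPM and those of T and NK cells at most 3.92, with Cd3e at 0. HSPC markers summed to 982 to 1005 CPM in WT_EV, 866 to 892 in dKO_EV, 777 to 799 in dKO_MUT and 688 to 708 in dKO_PRMT1. Of these 12 markers 7 were lower and 1 higher with PRMT1, at a median of -0.64, and 5 were lower and 1 higher with the mutant, at a median of -0.38. The part of any of these marker lists in the lower level of the 48 genes was not tested.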

How the data were processed

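RNA-seq of 8 mouse libraries was deposited by the authors as a table of whole-number read counts per gene. Per the submitters' processing notes, reads were trimmed with Trim Galore 0.6.6, aligned with STAR 2.7.6a and counted with featureCounts on GRCm38 (mm10). Per the labels' protocols, RNA was made into libraries with a directional kit. The annotation and the strand setting of the counting were not stated.

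The 48 genes, the pathway and marker lists and the tests were chosen with earlier results of these data known. Counts were tested with edgeR 4.0.16 (R 4.3.3): filterByExpr kept 12744 of 24421 genes, library sizes were scaled by TMM, and a robust quasi-likelihood model with 1 term for the group was fitted to all 8 libraries, so all groups share an estimate of the spread (common biological coefficient of variation 0.0637, 4 residual degrees of freedom). Benjamini-Hochberg adjustment ran over all genes tested, with a threshold of 0.05. An exact permutation test of 2 against 2 libraries cannot go below p = 0.333. CPM used the scaled library sizes, and RPKM the gene length in the file. The depth of 15531344 to 22329749 counts limits low genes such as the ligands; intervals of counting error cover that error only. On simulated counts for dKO_PRMT1 against dKO_EV (12521 genes), the test recovered 50.0% of genes changed 1.25-fold, 88.0% at 1.5-fold, 92.0% at 2-fold and 100.0% at 4-fold. The changed genes were drawn from those outside the 48 with a mean of at least 50 counts. Of 177 genes called in that simulation, 12 had not been changed. Replicates differed by more than sampling noise, so none was merged.

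Genes named with values by library were, in each group of roles, the 2 highest per unit of length (3 in groups of 6 or more) and the 1 with the largest change with PRMT1, plus any called between the inserts, called in opposite directions or not called with an insert. Oas1g was added to these after its values were seen, as the near copy of Oas1a. Promoters came from RefSeq (GRCm38.p6), and words of 50 bases shared between genes from the reference transcripts. Alternatives were DESeq2 1.42.0 size factors and Wald test, limma 3.58.1 voom, other filters, a fit of only the groups compared, scaling without the listed genes, a threshold of 0.01, a replicate block and leaving out each library. Some genes of the pathway list are counted in its totals but not reported here.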

Additional observations from a re-analysis of the deposited data

How the results depend on the processing

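Across 17 alternatives per comparison no called change of the 48 genes reversed its direction. Not all of them could reverse one. The threshold of 0.01 keeps the same estimates, and leaving out a library of a group not compared hardly moves them. Calls that passed under every alternative numbered 43 of 47 for dKO_PRMT1 and 45 of 46 for dKO_MUT against dKO_EV, 3 of 8 between the inserts (Rsad2, Ifit3 and Ifit1bl2), 11 of 17 for dKO_EV against WT_EV, and 44 of 46 and 46 of 47 for dKO_PRMT1 and dKO_MUT against WT_EV. At an adjusted p of 0.01, 1 gene in place of 3 was higher in dKO_EV than in WT_EV, and 5 in place of 8 were lower in dKO_PRMT1 than in dKO_MUT; the stricter threshold itself gives these counts. Leaving out 1 library at a time gave 1 to 3 and 5 to 10 genes, and the cause was not tested. Replicates of the same number did not deviate together (correlations of -0.05 to 0.00), so the groups share only a number; with the replicate block 46, 46 and 9 genes were lower in dKO_PRMT1 and dKO_MUT against dKO_EV and between the inserts, and 14 were lower and 3 higher in dKO_EV against WT_EV. Mx2 was lost with PRMT1 under the block (adjusted p = 0.0529). With 2 libraries a group, small changes and genes of few counts are the least firm.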

Other observations

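Close relatives of the 48 genes that were not among them were read for comparison, and were chosen after the values of the 48 were known. Irgm2, an immunity-related GTPase like Igtp, was lower with both inserts, by -0.81 ± 0.09 (SE) with PRMT1 and -0.55 ± 0.09 with the mutant. Ifit1bl1 was lower by -0.75 ± 0.21 and -0.63 ± 0.21, and Oas1c by -0.66 ± 0.21 and -0.73 ± 0.21. Gbp7, a guanylate-binding protein gene like Gbp3, was lower by -0.20 ± 0.06 (adjusted p = 0.0252) and -0.24 ± 0.06 (adjusted p = 0.00677). Oas1b was not called, at -0.56 ± 0.29 and -0.71 ± 0.29. Irf4, a factor of lymphoid and dendritic cells, was higher in dKO_EV than in WT_EV by 1.23 ± 0.17 (adjusted p = 1.4e-06) and lower with the mutant by -0.73 ± 0.17 (adjusted p = 0.00189), while its difference with PRMT1 was -0.08 ± 0.16.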
